A study of Mus musculus with 6 samples.

Results

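The 5 T-box genes described here, Tbx1, Tbx2, Tbx3, Tbx5 and Tbx20, encode transcription factors of heart muscle and of the second heart field, the progenitor cells that lengthen the outflow tract. The outflow tract is the arterial pole of the embryonic heart, a single muscular tube from which both great arteries form. The members are the 12 probe sets, of 45037 other than controls, that the platform annotation assigns to one of these genes alone. Tbx3 had 5 probe sets, Tbx20 had 3, Tbx5 had 2, and Tbx1 and Tbx2 had 1 each. On assembly GRCm38.p6 the genes lie on chromosome 16 (Tbx1, 18580979 to 18590671), chromosome 11 (Tbx2, 85832615 to 85841948), chromosome 5 (Tbx3, 119670534 to 119684724, and Tbx5, 119796514 to 119885220) and chromosome 9 (Tbx20, 24720812 to 24774303).

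Superior outflow tract of CD1 embryos at embryonic day 10.5 formed one group of 3 pools, and inferior outflow tract of the same strain and day the other group of 3 pools, numbered 1, 6 and 7 in both regions. The labels name no mutation or treatment, and each array shows the pooled RNA of littermates, 6 per pool in the sample labels and 7 in the design text. The comparison addresses which genes differ between these subdomains, and each region is a dissected piece that holds muscle, endocardium, cushion and other cells. In such pieces, fewer cells of a type and less RNA per cell cannot be told apart. Whether different pools come from different litters is not stated, so p-values speak for these pools alone. In the fit that pairs regions by pool, they rest on how the region difference varied between pools and on variance shared across probe sets.

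T-box factors share a DNA-binding domain that recognises a short half-site, and they act as activators or repressors depending on the member. In the mouse, Tbx2 and Tbx3 are repressors that keep the chamber muscle programme, including the atrial natriuretic peptide gene Nppa, switched off in the outflow tract and atrioventricular canal. Tbx5 and Tbx20 support chamber muscle, and in the mouse Tbx20 also restrains Tbx2 in the chambers. Tbx1 acts in pharyngeal tissues and second heart field progenitors, and mice without it fail to divide the outflow tract and lose muscle at the base of the pulmonary trunk.

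The half-site was written as AGGTGTGA and sought on both strands of RefSeq promoter windows of GRCm38.p6, each running from 250 bases before to 50 bases after a gene start. It occurred in 419 of 32851 windows (1.28%), which belong to 399 of the 27025 genes with a window. Of 70 genes that are members, other T-box genes or genes listed for T-box pathways, 44 had a window and 2 held the half-site: Nppa and Cdkn1a, a cell cycle inhibitor gene that Tbx2 and Tbx3 are known to repress. Their windows are shown because both genes are described below beside the repressors, with the half-site in capitals. The Nppa window is chr4:148000472-148000771, plus strand, and its half-site lies at the far end, on the opposite strand. The Cdkn1a window is chr17:29093519-29093818, plus strand, and its half-site starts 14 bases into the transcribed sequence. Tbx1 and Tbx20 had windows without this exact run of letters. A match describes the letters alone, and binding was not measured.
Nppa: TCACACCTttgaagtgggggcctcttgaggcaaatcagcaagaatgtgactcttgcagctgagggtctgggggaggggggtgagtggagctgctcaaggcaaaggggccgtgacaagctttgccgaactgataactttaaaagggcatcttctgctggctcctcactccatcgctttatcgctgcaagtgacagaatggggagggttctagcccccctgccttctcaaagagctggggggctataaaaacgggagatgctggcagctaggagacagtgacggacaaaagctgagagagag
Cdkn1a: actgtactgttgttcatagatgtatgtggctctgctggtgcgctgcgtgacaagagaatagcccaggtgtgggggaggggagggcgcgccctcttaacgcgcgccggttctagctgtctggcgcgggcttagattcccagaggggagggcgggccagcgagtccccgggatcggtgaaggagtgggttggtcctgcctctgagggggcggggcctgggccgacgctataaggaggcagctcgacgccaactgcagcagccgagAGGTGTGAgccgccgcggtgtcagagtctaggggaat

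Signals are intensities on a linear scale relative to the rest of each array. Median signals of the 6 arrays lay between 13.9 and 17.6, and a signal above 8.0, the highest of 27 Bacillus control probe sets, is called above background. A probe set was tested where its mean log2 value over the 6 arrays lay above the array-wide median (a signal near 15.1), which kept 8 of the 12 member probe sets and at least 1 for each gene. The brightest probe set stands for a gene unless another is named. Of the 4 probe sets not tested, the 3 of Tbx3 and 1 of Tbx5, only 1 (Tbx3, 1445757_at) was above background on any array, on 1 superior and 2 inferior arrays. It read 2.2, 9.1 and 1.5 in superior pools 1, 6 and 7, against 9.1, 11.9 and 4.4 in inferior pools. The untested Tbx5 probe set, 1425694_at, read 2.8, 6.3 and 7.5 in superior pools, against 0.6, 1.7 and 4.3 in inferior pools. Its higher superior values all lie within background and carry no fold change.

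Tbx1, Tbx2, Tbx3 and Tbx20 had lower mean log2 values in superior than in inferior pools. Tbx5, at -0.05, had no settled direction: it was 0.38 without pool 7 and 0.02 under cyclic loess scaling. In limma, 0 of the 8 tested probe sets passed at an adjusted p threshold of 0.05. Among the 5, Tbx3 had the largest difference, at -0.61, and Tbx5 the smallest, at -0.05. Over all 22518 tested probe sets, 36 passed (0.160%) in the fit that pairs regions by pool, called the paired fit here, and 9, 231 and 116 passed without pool 1, 6 and 7. Without pairing, limma passed 0 of all tested probe sets (0%) and 0 of the 8 members. That fit put 792 of all tested probe sets (3.52%) and 0 of the 8 members under an unadjusted p of 0.05. In the paired fit, 5 of the 8 lay under that unadjusted threshold, all lower in superior, against 6.00% of all tested probe sets in that direction. The same 5 were lower in superior within each of the 3 pools, where 19.0% of all tested probe sets were. These were the Tbx1 and Tbx2 probe sets, both of Tbx3 and 1 of Tbx20. The range of 3 superior signals overlapped that of 3 inferior signals for all 8, while 9.21% of all tested probe sets showed no overlap. The median log2 difference of the 5 genes was -0.35, and that of all 11195 genes tested was -0.003.

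**Figure D1:**
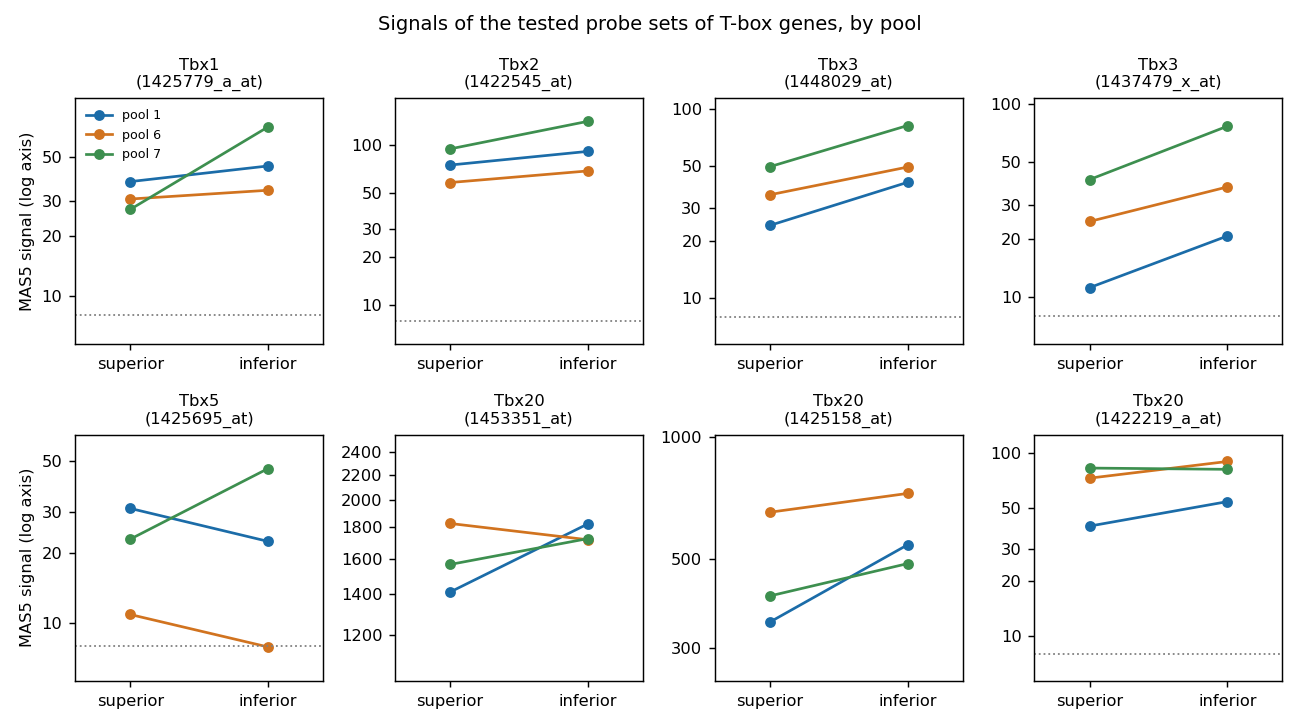
MAS5 signal on log axes of each tested probe set of the 5 T-box genes, superior at left and inferior at right; a line joins the 2 regions of 1 pool, and the dotted line, drawn where it falls within the panel, is the background of 8.0. Lines for Tbx1, Tbx2 and Tbx3 all climb towards inferior, those of Tbx5 cross, and pools lie apart by more than the regions for Tbx2 and Tbx3.

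Tbx2 (probe set 1422545_at) had signals of 75.1, 58.4 and 94.7 in superior pools 1, 6 and 7, against 91.4, 69.0 and 140.8 in inferior pools 1, 6 and 7. The superior value was the lower one in every pool, although superior 7 exceeded inferior 1 and inferior 6. The means were 76.1 ± 18.2 in superior and 100.4 ± 36.7 in inferior pools (SD, n = 3 each). The log2 difference was -0.35 ± 0.13 (SE of the paired fit), with a 95% interval from -0.64 to -0.06 and an adjusted p of 0.401. Pool means of Tbx2 spanned 0.83 on the log2 scale, more than its region difference.

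Tbx3, the closest relative of Tbx2 in the family, gave the same order in both of its tested probe sets. Its brighter one, 1448029_at, had signals of 24.3, 35.3 and 49.7 in superior pools 1, 6 and 7, against 41.1, 49.5 and 82.1 in inferior pools. Superior was lower in each pool, and pool 7 was the highest and pool 1 the lowest in both regions. The log2 difference was -0.61 ± 0.15 (adjusted p = 0.243), a 1.53-fold lower value in superior, with -0.69, -0.45 and -0.69 in pools 1, 6 and 7. The second probe set, 1437479_x_at, had signals of 11.2, 24.6 and 40.5 in superior and 20.7, 37.1 and 76.4 in inferior pools. Its log2 difference was -0.71 ± 0.17 (adjusted p = 0.235), the smallest adjusted p of any member. Its suffix marks probes that can bind other transcripts. Pool means of the brighter probe set spanned 0.94 and those of the second 1.67, so pools differed by more than regions did.

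Tbx1 (probe set 1425779_a_at) had signals of 37.7, 30.8 and 27.3 in superior pools 1, 6 and 7, against 45.2, 34.1 and 71.1 in inferior pools. One array, inferior 7, stood far above the other 5, which lay between 27.3 and 45.2. The log2 difference was -0.55 ± 0.23 (adjusted p = 0.441), made up of -0.24, -0.13 and -1.28 in pools 1, 6 and 7. Without pool 7 it was -0.19.

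Tbx5, which in the mouse marks the posterior second heart field and the inflow chambers, had signals of 31.2, 10.9 and 23.0 in superior pools 1, 6 and 7, against 22.5, 7.9 and 46.3 in inferior pools. It was higher in superior in pools 1 and 6, by 0.42 and 0.35 on the log2 scale, and lower in pool 7, by a difference of -0.92. The inferior 6 array was not above background. The fitted log2 difference was -0.05 ± 0.28 with a 95% interval from -0.69 to 0.59 (adjusted p = 0.966), and the interval holds shifts in both directions. The difference was 0.38 without pool 7. It was 0.33 with the mean of both Tbx5 probe sets, but the dimmer one lay within background on all arrays, so that value shows no direction.

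**Figure D2:**
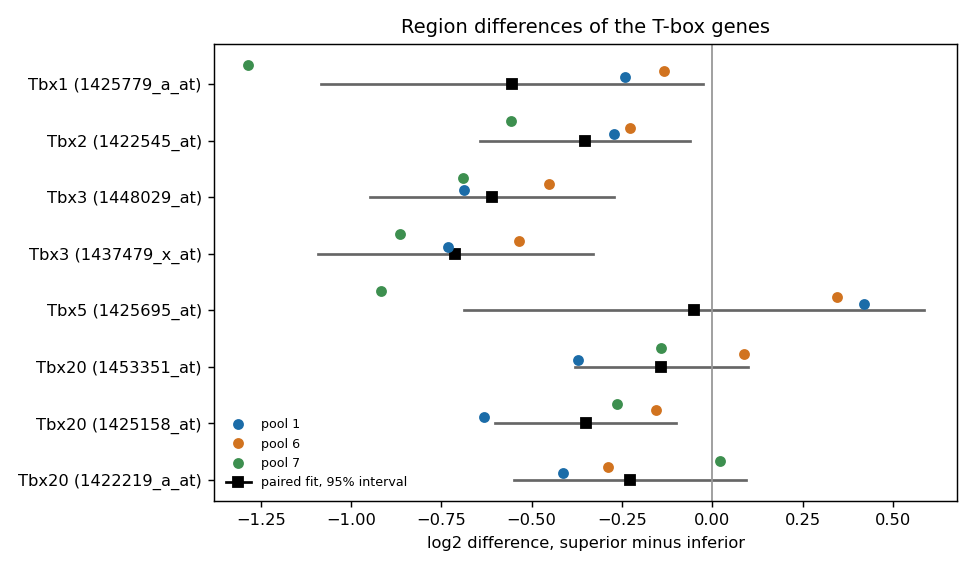
Log2 difference, superior minus inferior, of the 8 tested probe sets of the 5 T-box genes; squares with bars are the paired fit with its 95% interval, coloured dots the 3 pools, set slightly apart vertically. Tbx3 has its 3 pools on one side in both probe sets, while the dots of pool 7 lie far left of the others for Tbx1 and Tbx5.

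Tbx20, which is needed in heart muscle and endocardium, was measured by 3 tested probe sets that did not match in size. The brightest, 1453351_at, had signals of 1409, 1828 and 1565 in superior pools 1, 6 and 7, against 1824, 1718 and 1726 in inferior pools. Superior was lower in pools 1 and 7 and higher in pool 6. Its log2 difference was -0.14 ± 0.10 (adjusted p = 0.665), with a 95% interval from -0.38 to 0.10. The second, 1425158_at, had signals of 347.6, 651.8 and 403.7 in superior and 540.9, 725.9 and 485.8 in inferior pools. It was lower in superior in all 3 pools, with a log2 difference of -0.35 ± 0.11 (adjusted p = 0.350). The third, 1422219_a_at, differed by -0.23 ± 0.14, with superior lower in pools 1 and 6 and by 0.02 higher in pool 7. With the 3 probe sets averaged, the difference was -0.24 (adjusted p = 0.450).

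A two-sided exact permutation test on the log2 values of each gene, which ignores pools and can give no p below 0.1 with 3 arrays against 3, gave p = 0.2 for Tbx1, 0.3 for Tbx3, 0.4 for Tbx20, 0.5 for Tbx2 and 1 for Tbx5.

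Tbx1, Tbx2, Tbx3 and Tbx5 were all highest on the inferior 7 array, where 20.4% of all tested probe sets were highest, while Tbx20 was highest on superior 6. Of 7 markers of pharyngeal endoderm, the gut lining beside the outflow tract, 2 were also highest on inferior 7 (Epcam and Cdh1). In superior, 6 of the 7 had a higher mean log2 value, as did 1 of the 2 that passed the filter. The 7 summed to signals of 60.4 to 88.9 on superior arrays and 41.6 to 132.2 on inferior arrays, and inferior 7 was the array at 132.2, most of it Epcam and Cdh1. Shh, Foxa2 and Nkx2-1, which define the endoderm, were not high on inferior 7, at 3.0, 0.4 and 0.9, all under background, and Shh read 8.8 to 9.9 on superior arrays. Epcam, an adhesion protein of epithelia, had a signal of 67.0 there and 14.2 to 27.0 on the other 5 arrays, although its second probe set read 21.8 there and 27.1 on inferior 1. Cdh1, the epithelial cadherin, had 46.7 there and 11 to 30.0 elsewhere. These were the 2 of the 7 that passed the filter, and Pax9, a defining endodermal factor, was at or below background on all arrays. Of 6 markers of pharyngeal muscle progenitors, 3 were highest on inferior 7, and Msc and Lhx2 were at or below background throughout. The sum of those 6 was 407.2 to 523.2 on superior arrays and 328.4 to 360.9 on inferior arrays, most of it Tcf21, which the epicardial list also holds and which was called higher in superior, and 2 of the 6 were higher there. The part of such cells in the Tbx1 and Tbx5 values was not tested, and the values without pool 7 are those given above. Without pool 7, Tbx2 differed by -0.25, Tbx3 by -0.57 and Tbx20 by -0.14.

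**Figure D3:**
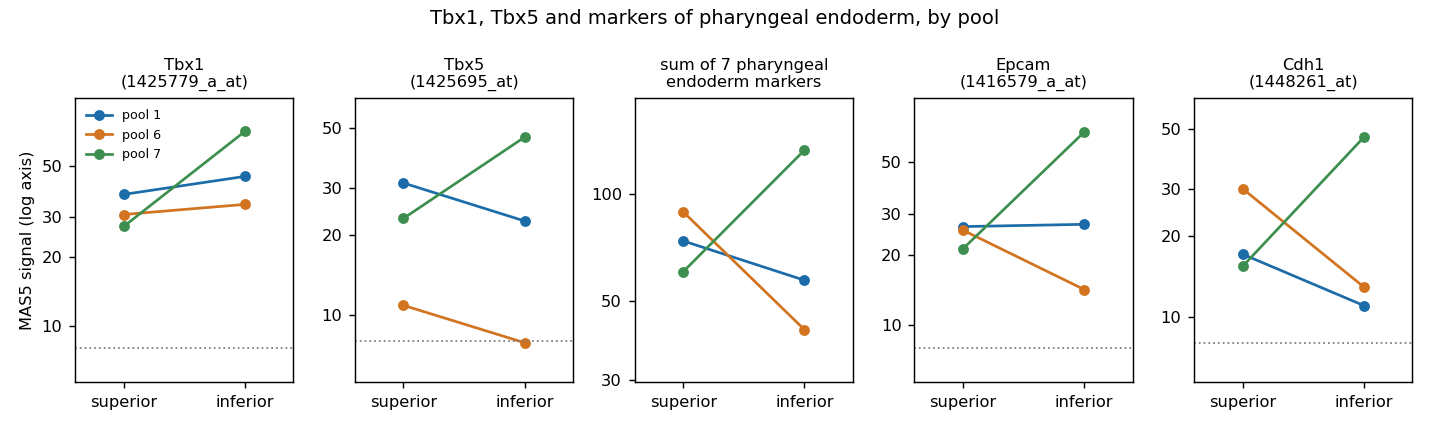
MAS5 signal on log axes of Tbx1, Tbx5, the summed signal of the 7 pharyngeal endoderm markers, Epcam and Cdh1, with superior at left, inferior at right and 1 line a pool; the dotted line is the background of 8.0. Inferior 7 is the highest point in all 5 panels, at 71.1 for Tbx1 and 46.3 for Tbx5. Epcam and Cdh1 are drawn as the 2 of the 7 markers that were highest on inferior 7, and they make up most of the sum there. Shh, Foxa2 and Nkx2-1, not drawn, read 3.0, 0.4 and 0.9 on that array. The second Epcam probe set, not drawn, read 21.8 there and 27.1 on inferior 1.

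The genes whose log2 signals followed each member most closely over the 6 arrays were ranked by Pearson's r among 11194 genes, as a description, since the arrays share pools. Here a gene was taken by whichever of its tested probe sets had the highest r, which need not be its brightest. For Tbx1 they were Cldn4, a claudin of epithelial tight junctions (r = 0.998), Stag1, a cohesin subunit (0.991), and Flywch2 (0.990). Cldn4 had a signal of 28.6 on inferior 7 and 13.6 to 19.8 on the other arrays. For Tbx2 they were Cracdl (r = 0.992), Lrrc2 (0.991) and the kinase gene Camk2g (0.990). For Tbx3 they were the RNA helicase gene Ddx49 (r = 0.991), Chpt1, an enzyme of phospholipid synthesis (0.989), and Prtg, an embryonic receptor of the immunoglobulin family (0.988). For Tbx5 they were Mettl3, which methylates adenosines in RNA (r = 0.993), Rnf10 (0.989) and Zc2hc1a (0.989), and for Tbx20 Simc1 (0.997), Dcpp3 (0.994) and Mfsd6 (0.971). Between 66 and 272 genes reached an r of 0.9 with each member.

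Among 12 other T-box genes, 10 had a probe set and 3 were tested, of which 1 was called. That gene was Tbx18, a factor of the epicardium and sinus horns. Its signals were 311.6, 426.0 and 179.8 in superior pools 1, 6 and 7, against 86.2, 129.7 and 40.1 in inferior pools, with no overlap. The log2 difference was 1.86 ± 0.12 (adjusted p = 0.00260), and its second probe set gave 2.07 ± 0.22 (adjusted p = 0.0237). Without pairing, limma gave an adjusted p of 1.00 for both. All 7 epicardial markers, Tbx18 among them, were higher in superior and 5 were called (Tbx18, Tcf21, Upk1b, Aldh1a1 and Aldh1a2), their sum being 968.3 to 1792.3 on superior and 460.2 to 793.8 on inferior arrays. The part of epicardial cells in the Tbx18 value was not tested. Tbx4 (-0.05 ± 0.17) and Mga (-0.01 ± 0.15) were the others tested.

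**Figure D4:**
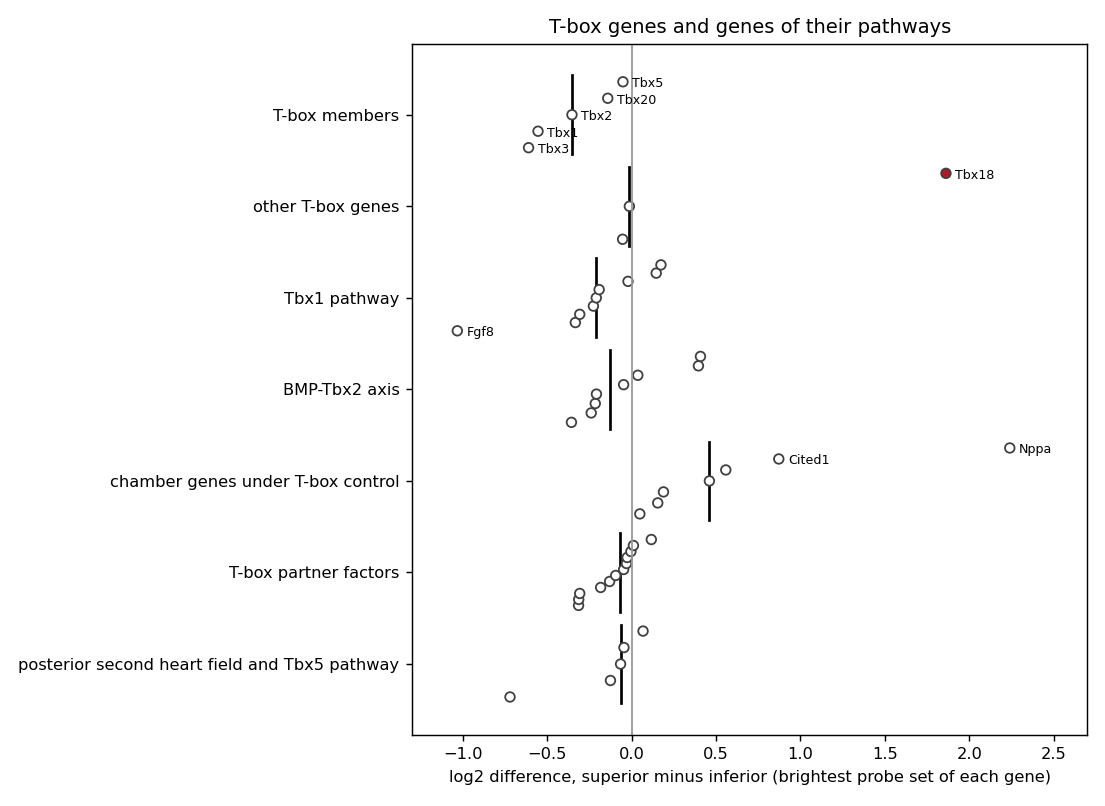
Log2 difference, superior minus inferior, of the brightest probe set of each tested gene, by list; the vertical bar is the list's median, and a filled dot marks an adjusted p under 0.05. Tbx18 is the filled dot, the 5 members lie below 0 (Tbx5 at -0.05, with -0.29 to 0.38 when a pool is left out), and all 7 tested chamber genes lie above 0.

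The chamber muscle genes listed as under T-box control gave 0 calls among 7 tested. By their brightest probe sets all 7 had a higher mean log2 value in superior, with a median log2 difference of 0.46. In every pool 6 of them were higher, as were 2004 of all 11195 genes tested. The lowest of the 7, Ryr2, was at 0.05 and lower in superior in 2 pools, and other probe sets of Atp2a2 were at 0.01 and -0.03. Besides its brightest, the tested probe sets of Gja1 were at 0.19, 0.13, 0.18 and -0.25. Nppa had signals of 147.4, 45.9 and 295.4 in superior pools 1, 6 and 7, against 29.3, 16 and 30.4 in inferior pools. All 3 superior signals lay above all inferior ones, and the log2 difference was 2.24 ± 0.30 (adjusted p = 0.0623). Nppb, the neighbouring natriuretic peptide gene, differed by 0.56 ± 0.09 (adjusted p = 0.0785), and Cited1, a chamber muscle co-regulator that Tbx2 represses in the mouse, by 0.87 ± 0.16 (adjusted p = 0.111). Smpx, a small protein of chamber muscle, differed by 0.46 ± 0.09 (adjusted p = 0.132). The calls of these 4 genes turned on which pool was left out, in fits with 1 residual degree of freedom. Without pool 1, where 9 of all tested probe sets passed, their adjusted p was 0.877 for Nppa, 0.796 for Cited1, 0.823 for Nppb and 0.889 for Smpx. Without pool 6, where 231 passed, it was 0.00130 for Nppa, 0.0264 for Cited1, 0.0332 for Nppb and 0.0163 for Smpx. Without pool 7, where 116 passed, it was 0.00150 for Nppa, 0.0272 for Cited1, 0.0317 for Nppb and 0.295 for Smpx. Of 6 ventricular muscle markers 1, Irx4, was called higher in superior. The means of all 6 were higher there, down to 0.02 for Mybpc3 (adjusted p = 0.962), with sums of 18919 to 22581 on superior and 16344 to 17352 on inferior arrays. Of 6 atrial and sinus venosus markers, 5 were higher in superior, with sums of 524.0 to 613.5 on superior and 389.9 to 534.4 on inferior arrays. The part of such muscle in the Nppa value was not tested.

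Cdkn1a, named after its values and promoter had been seen, gave no single answer. Its probe set 1421679_a_at was higher in superior in all 3 pools (98.6, 88.2 and 61.8, against 58.5, 67.2 and 39.1 in inferior). That probe set had a log2 difference of 0.57 ± 0.14 (adjusted p = 0.236). The brighter 1424638_at differed by 0.04 ± 0.13, with -0.12 and -0.13 in pools 1 and 6 and 0.36 in pool 7.

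**Figure D5:**
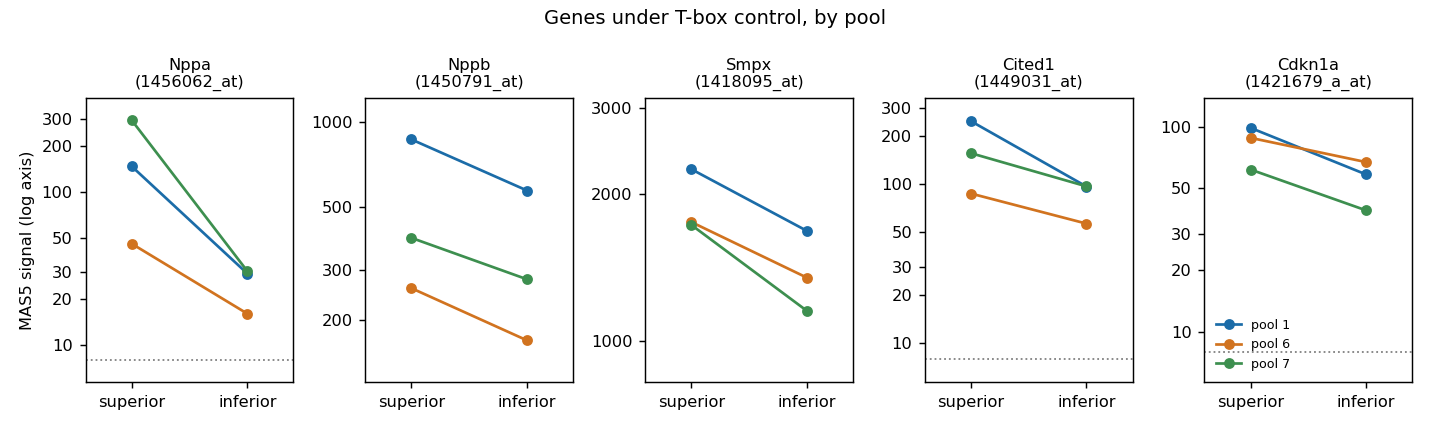
MAS5 signal on log axes of Nppa, Nppb, Smpx, Cited1 and the dimmer Cdkn1a probe set, superior at left and inferior at right, 1 line a pool; the dotted line, drawn where it falls within the panel, is the background of 8.0. Every line descends towards inferior, most steeply for Nppa, whose superior signals are 45.9 to 295.4 and inferior ones 16 to 30.4. The chamber genes drawn are those with the largest differences among the tested ones. The brighter Cdkn1a probe set, not drawn, was lower in superior in pools 1 and 6.

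Genes upstream of Tbx2 and its other targets had 3 of 8 tested genes higher and 5 lower, with 0 called and a median log2 difference of -0.13. The ligands Bmp2 and Bmp4, which induce Tbx2, differed by -0.36 ± 0.13 (adjusted p = 0.415) and -0.24 ± 0.09 (0.416). Bmp2 was at 0.03 in pool 7, and at -0.18 without pool 6 and -0.55 without pool 7. Mycn, a growth gene that Tbx2 represses, differed by 0.41 ± 0.09 (adjusted p = 0.219), and Hey2, which keeps Tbx2 out of the chambers in the mouse, by 0.40 ± 0.09 (0.236). In the Tbx1 pathway 7 of 9 tested genes were lower in superior, 6 of them in every pool, and 0 were called. Among all 11195 genes tested, 1911 (17.1%) were lower in every pool. Fgf8, a ligand downstream of Tbx1, differed by -1.03 ± 0.17 (adjusted p = 0.0932, and 0.668, 0.0330 and 0.104 without pools 1, 6 and 7), Smad7 by -0.33 ± 0.10, Isl1 by -0.31 ± 0.08 and Hes1 by -0.23 ± 0.10.

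Genes listed as partner factors of T-box proteins were lower in superior for 10 of 12, again with 0 called and a small median of -0.07. Nkx2-5, the homeodomain partner of Tbx5 and Tbx20, differed by -0.31 ± 0.09, the co-repressor gene Tle3 by -0.31 ± 0.10 and Gata5 by -0.18 ± 0.10. In the posterior second heart field and Tbx5 pathway 4 of 5 tested genes were lower with 0 called, and Hoxa3 had the largest difference, at -0.72 ± 0.34 (adjusted p = 0.486). Hoxa3 was higher in superior in pool 1, at 0.23, and its difference was -1.20 without pool 1 and -0.20 without pool 7, while its other tested probe set gave -0.09. Gas1, a hedgehog co-receptor, had probe sets that disagreed, the brighter at -0.12 ± 0.09 (-0.03 without pool 7) and the other tested one at 0.41 ± 0.14 (adjusted p = 0.376). Ptch1 differed by -0.07 ± 0.09. The Nr2f2 probe sets also disagreed, the brighter at 0.07 ± 0.19 (-0.03 and -0.14 without pools 1 and 6) and the other tested one at -0.19 ± 0.21. Among all 11195 genes tested, 5509 were higher and 5686 lower in superior.

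Of the labelled tissue's own markers, 9 of outflow tract muscle, 0 were at or below background on all arrays, 4 were higher and Sema3c was called lower in superior. They summed to 25189 to 30414 on superior and 24771 to 25049 on inferior arrays. Of 7 endocardial markers 5 were higher in superior, of 7 cushion markers 2 and of 6 blood markers 4. Endocardial markers summed to 1483 to 2064 on superior and 1545 to 1797 on inferior arrays, cushion mesenchyme to 7768 to 10611 and 7017 to 9813, and blood to 13909 to 22690 and 12525 to 15731. Neural crest markers, with Foxd3 and Tfap2b at or below background, summed to 560.2 to 682.5 on superior and 687.9 to 871.2 on inferior arrays, without overlap. Of those 7 crest markers 2 were higher in superior, and Ets1, which endothelium also expresses, made up most of the sum. Sums of outflow tract muscle, ventricular muscle, epicardium and pharyngeal muscle progenitors did not overlap between regions either, and lay higher in superior. For outflow tract muscle the gap was narrow, with a lowest superior sum of 25189 and a highest inferior sum of 25049. Its 4 higher markers, Actc1, Myl7, Tnnt2 and Tnni1, made up most of that sum, while 5 of the 9 markers were lower in superior. The part of crest cells in the lower Tbx2 and Tbx3 values of superior pools was not tested.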

How the data were processed

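Superior and inferior outflow tract pools were measured on Affymetrix arrays, 3 per region. Each deposited value is a probe set's linear intensity. The submitters' processing notes name MAS5 as the tool, without a version. MAS5 subtracts mismatch signal, so dim probe sets are noisy. With 2% trimmed at both ends, every array averaged 100.0.

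Gene names came from the platform annotation (34945 naming 1 gene, 932 several, 9160 unnamed here), checked by gene ID against RefSeq GRCm38.p6, which changed 0 symbols. The 64 controls were left out. Signals became log2(signal + 3.2), 3.2 being their 25th percentile. Fold changes on this scale understate the change of dim genes. The difference, superior minus inferior, was fitted with limma 3.58.1 in R 4.3.3 (lmFit, eBayes with trend and robust variance) with pool number as a block, and adjusted by Benjamini-Hochberg over 22518 probe sets. The fit was tested on simulated data. Pairing follows the shared pool numbers: deviations from region means correlated across probe sets at 0.79, 0.43 and 0.51 for pools 1, 6 and 7, against -0.54 to 0.20 for unlike numbers. The paired fit leaves 2 residual degrees of freedom, so its p-values lean on variance shared across probe sets.

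The members, gene lists and tests were chosen with earlier results of these data known. Named genes are all member probe sets, up to 4 genes per pathway list by size of difference, Tbx18, the 3 closest genes per member, and marker genes past the threshold or at background on all arrays. Cdkn1a, Epcam, Cdh1, Ets1, Shh, Foxa2, Nkx2-1, Ryr2, Atp2a2, Mybpc3, Gja1, Actc1, Myl7, Tnnt2 and Tnni1 were named after their values were seen. The array number limits precision. Alternatives changed the block, offset, filter, normalization, variance model, arrays and the probe set standing for a gene.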

Additional observations from a re-analysis of the deposited data

How the results depend on the processing

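Member probe sets called numbered 0 in all 19 fits, the paired one included. The number called among all probe sets, 36, was 0 with no replicate block, 22 when the offset was 1, 1 when dim probe sets were kept, 2 among the brightest 25%, 0 without trend and robust variance, and between 9 and 231 without a pool or an array. Under the block, leaving out 1 array leaves its partner without weight, so those differences equal the ones without the whole pool. Of the members, Tbx1, Tbx2, Tbx3 and Tbx20 kept a negative difference in every setting that tested their brightest probe set, with ranges of -0.76 to -0.19, -0.41 to -0.25, -0.69 to -0.46 and -0.26 to -0.03. Tbx20 shrank to -0.03 without pool 1. Tbx5 was -0.05, turned to 0.02 with cyclic loess, and lay between -0.29 and 0.38 without a pool. With the mean of its probe sets Tbx5 was at 0.33, a value that draws on a probe set within background. Among the brightest 25%, 2 member probe sets, both of Tbx20, were tested. Tbx18 kept 1.86 with no replicate block and without trend and robust variance, and its adjusted p was then 1.00 and 0.0948. Near 0, signs also turned for Mga (0.01, 0.01 and 0.03 under quantile, cyclic loess and 75th percentile scaling, and -0.26 to 0.11 without a pool), Tbx4 (0.01 and 0.02 under quantile and cyclic loess, -0.16 to 0.04 without a pool), Nr2f2 (-0.14 to 0.37 without a pool) and the brighter Cdkn1a probe set (-0.12 to 0.12 without a pool). The cause was not tested in any of these cases. Signals near the background of 8.0, as for Tbx5 and 4 untested member probe sets, limit what these arrays show.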
